A study of Mus musculus with 14 samples.

Results

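Mouse hepatocytes that had spent 3 days in the culture called BM were compared, gene by gene, with hepatocytes sequenced straight after isolation. The comparison took 4 of the 14 libraries of the study by their labels, BM 3D 1 and BM 3D 2 on one side and FH 1 and FH 2, the freshly isolated cells, on the other. It covered the 14100 genes with enough reads to be tested. Both groups came from liver of the C57BL/6 strain, and the labels name no mutant allele, no added agent, no age and no sex for either. What BM contains, the surface the cells were plated on and their density are not given in the sources used here. BM cells sampled at 1 day (BM 1D) and at 3 weeks (BM 3W), with 2 libraries each, are used below to place the third day in time. The study asks whether tension in the culture dish activates the co-activator YAP and so costs hepatocytes their functions. Nothing in the labels ties the libraries of a group to separate mice or dishes, so each p-value covers only the spread among these samples, which may be technical. That spread is estimated over all 7 groups, which also include fresh hepatocytes labelled YAP-/-, YAP-/- cells after 3 weeks in BM and cells after 3 weeks in a culture called LBDXL.

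Hepatocytes make urea, glucose, bile acids and most plasma proteins, and break down drugs, under the control of a set of liver-enriched transcription factors. Plated on a stiff surface they are known to flatten, to build actin cables and to lose much of this programme within days. YAP is a co-activator that binds TEAD transcription factors and enters the nucleus in spread, tense cells, and its standard target genes include Ctgf, Cyr61 and Ankrd1.

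The 4 libraries held between 17704762 and 19494797 counts. Levels are given as CPM, counts scaled to a common library size after TMM, a factor that sets the bulk of genes equal between libraries. Log2 fold changes (± standard error) and adjusted p-values come from edgeR's quasi-likelihood test, and "rose" and "fell" are used only below an adjusted p of 0.05. Counts of FH 1 and FH 2 were close, at a chi-square of 5.49 for each degree of freedom, and those of BM 3D 1 and BM 3D 2 far less alike, at 178. Among genes averaging at least 50 CPM, 264 of 3295 differed more than 2-fold between BM 3D 1 and BM 3D 2, and 2 of 3569 between FH 1 and FH 2. Both groups carried hepatocyte markers. Alb, which encodes albumin, was the gene with the highest FPKM (reads per length and depth) in each group, at 37027 and 35321 in FH and 13157 and 31575 in BM 3D. In bulk RNA, fewer cells of a type and less RNA per cell cannot be told apart.

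In all, 3175 genes rose (22.5%) and 2530 fell (17.9%) of the 14100 tested, so that 40.5% passed. The libraries of the groups did not overlap for 10568 genes (75%). Changes were large: 1206 genes rose and 571 fell by at least 3 on the log2 scale, and the median called rise was 2.20 against a median called fall of -1.61. Leaving out FH 1 or FH 2 brought the 5705 calls down to 3596 or 3461, and leaving out BM 3D 1 or BM 3D 2 to 4450 or 4987. Scaling matters for small changes, since TMM factors lay near 0.65 in FH and at 1.36 and 1.15 in BM 3D. Scaled by total counts alone, the median of all genes moved from 0.17 to 1.11, with 7575 genes higher and 1038 lower. The split was 6463 higher to 1063 lower on the log2(FPKM + 1) scale. Directions that turn with the scaling are pointed out where they are given.

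**Figure D1:**
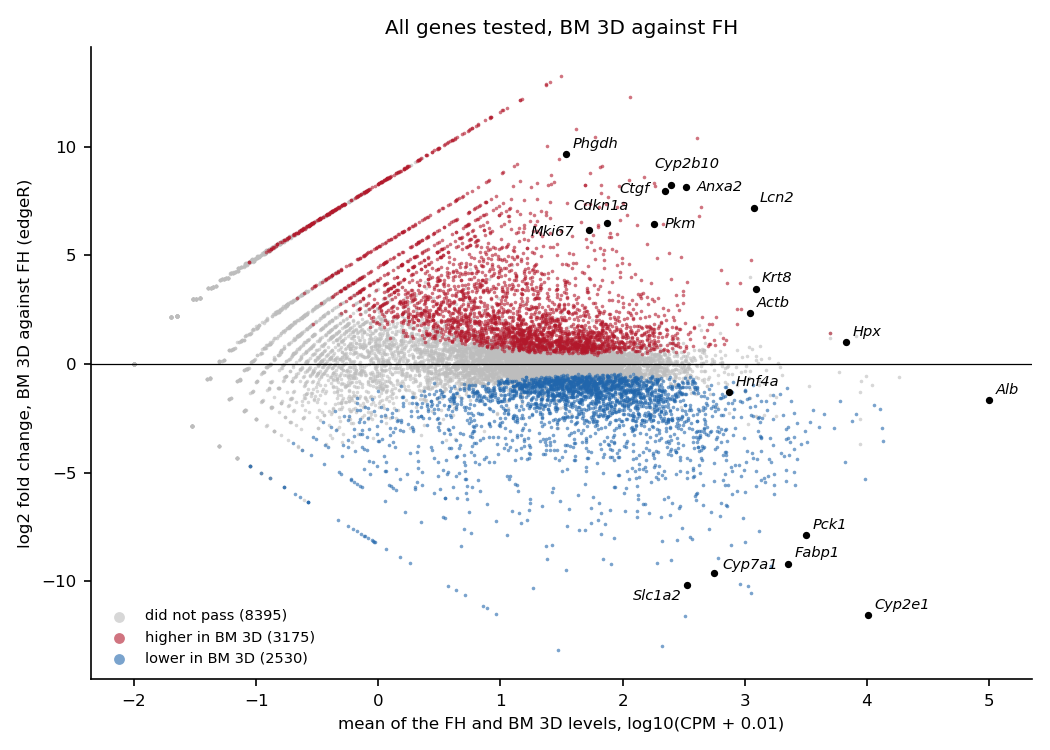
Each point is 1 of the 14100 genes, with the mean of its FH and BM 3D levels on the x axis (log10 of CPM + 0.01) and the edgeR log2 fold change on the y axis. The 3175 genes that rose are red, the 2530 that fell are blue and the 8395 that did not pass are grey. The straight upper and lower edges are genes with 0 counts in one group, whose fitted fold change is no measured size.

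The transcription factors that hold the hepatocyte programme were lower as a group, but unequally. Of 25 tested, 19 fell, 6 did not pass and 0 rose, with a median log2 fold change of -1.52 against 0.17 over all genes. Nr1i3, the drug-sensing receptor CAR, had 276 and 249 CPM in FH and 1.34 and 2.66 CPM in BM 3D, the deepest fall of the list (log2 -7.05 ± 0.85, adjusted p = 1.75e-04). Ppara, the fatty acid receptor that drives lipid oxidation, went from 713 and 717 CPM to 45.0 and 54.0 CPM (log2 -3.85 ± 0.60, adjusted p = 6.93e-04). Cebpa, a factor of the mature hepatocyte, went from 307 and 278 CPM to 19.4 and 29.2 CPM (log2 -3.59 ± 0.42, adjusted p = 1.38e-04). Both BM 3D libraries lay below both FH libraries for each of these 3 genes, as for the other genes said below to have risen or fallen except Cyp1a1. Hnf4a, often described as the central regulator of hepatocyte identity, kept much more of its level, with 1065 and 1057 CPM in FH and 366 and 500.4 CPM in BM 3D (log2 -1.29 ± 0.32, adjusted p = 0.00768). Its call was lost by total counts alone, and with BM 3D 1 left out (adjusted p = 0.0601). By total counts alone 10 of the 25 fell and 2 rose.

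Enzymes of the urea cycle and of amino acid breakdown were among the most uniformly reduced genes. Of 35 tested, 32 fell, 1 rose and 2 did not pass, with a median of -3.82. Ass1, which makes argininosuccinate in the urea cycle, had 5145 and 5088 CPM in FH and 233 and 257 CPM in BM 3D (log2 -4.38 ± 0.58, adjusted p = 2.72e-04). Arg1, the last enzyme of the cycle, kept a larger share of its transcript, at 402 and 370.4 CPM from 2097 and 2300.0 CPM (log2 -2.51 ± 0.31, adjusted p = 2.00e-04). Cps1, which commits ammonia to the cycle, was unequal in BM 3D, at 1687 and 3783 CPM against 13502 and 13421 CPM (log2 -2.30 ± 0.80, adjusted p = 0.0405). The fall of Cps1 did not pass when any 1 of the 4 libraries was left out or by total counts alone. Its level on the third day was above both BM 1D libraries, which had 208 and 313 CPM. The deepest fall of the list was that of Hal, the histidine ammonia-lyase (log2 -6.42 ± 0.95). Gls2, the liver glutaminase (log2 -5.07 ± 0.83), and Glul, the glutamine synthetase of pericentral cells (log2 -4.34 ± 0.34), fell too. Gldc, of the glycine cleavage system, was the riser, at 488 and 287 CPM from 151 and 154 CPM (log2 1.34 ± 0.49, adjusted p = 0.0488), and its call was lost without FH 1, FH 2 or BM 3D 1. Ftcd and Nags did not pass.

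More genes of glucose production fell than rose, and more of the widely expressed glycolysis genes rose than fell. Pck1, which commits carbon to gluconeogenesis (NCBI gene 18534, chromosome 2, 173153073 to 173159274 in GRCm38.p6), had 6426 and 6275 CPM in FH and 25.8 and 27.5 CPM in BM 3D (log2 -7.89 ± 1.00, adjusted p = 2.16e-04). The FH mean was 238-fold the BM 3D mean, and the BM 3D libraries differed little from each other. G6pc, which releases free glucose, went from 786 and 749 CPM to 15.8 and 6.85 CPM (log2 -6.08 ± 0.95, adjusted p = 6.75e-04). Of 17 genes of gluconeogenesis, glycogen and fructose handling, 10 fell, 7 did not pass and 0 rose, or 8 fell and 3 rose by total counts alone. Of 21 widely expressed glycolysis genes, 11 rose, 1 fell and 9 did not pass (median 1.32, or 1.17 with the gene at 0 counts in a group held to its bound from a floor of 3 counts per library). The 11 became 5 without FH 1, FH 2 or BM 3D 2 and 18 by total counts alone, with 0 falls. Pkm, the pyruvate kinase of muscle and dividing cells, had 3.98 and 4.35 CPM in FH and 369.6 and 350.3 CPM in BM 3D (log2 6.43 ± 0.43, adjusted p = 9.65e-06). Pfkp (log2 6.56 ± 0.91), Hk1 (log2 4.26 ± 0.62) and Hk2 (log2 5.06 ± 0.65) rose as well. Pfkfb3, a regulator of glycolytic flux, was the exception and fell (log2 -1.54 ± 0.49, adjusted p = 0.0271), a call lost by total counts alone and without FH 1, FH 2 or BM 3D 1. Pgk1 and Tpi1 did not pass.

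Pairs of related genes were compared by the ratio of their FPKM values. Most of the 21 pairs set a form of an enzyme or carrier enriched in hepatocytes beside a form of wider expression, and the others were keratin, junction, adhesion, growth factor and transcription factor genes. In 19 of the 21 the ratio of the second gene of the pair to the first was higher in both BM 3D libraries than in both FH libraries, and the exceptions were Cdh2 to Cdh1 and Tead4 to Tead1. Such separation was common, since 75% of all single genes did not overlap between the groups (41.5% higher and 33.5% lower). The pairs were chosen with earlier results known, and no share over other pairs was computed. FPKM values allow levels to be compared between genes. Mat1a, the adult liver methionine adenosyltransferase, fell from 835 and 822 to 53.8 and 10.8 FPKM (log2 -5.57 ± 1.07) and Mat2a, the form of growing cells, rose from 21.3 and 21.8 to 127 and 92.9 FPKM (log2 1.45 ± 0.21). Mat2a was therefore below Mat1a in both FH libraries and above it in both BM 3D libraries. Gys2, the liver glycogen synthase, fell to 2.39 and 7.09 FPKM from 97.5 and 98.9 (log2 -5.21 ± 0.93), and Pygb, the brain glycogen phosphorylase, rose to 11.9 and 6.11 FPKM from 0.204 and 0.248 (log2 4.34 ± 0.29). Among solute carriers, the arginine transporter Slc7a2 fell (log2 -3.07 ± 0.45) as its relative Slc7a1 rose (log2 6.82 ± 0.88). The glucose transporter Slc2a2 fell (log2 -2.98 ± 0.77, not passing without BM 3D 1) as Slc2a1 rose (log2 1.98 ± 0.43). Pyruvate kinase was different in that the liver form did not pass: Pklr stood at 65.2 and 65.3 FPKM in FH and 46.2 and 108 FPKM in BM 3D beside a Pkm that went from 0.717 and 0.796 to 129.9 and 93.9 FPKM. Not every widely expressed relative rose with TMM, since Fabp5 and Acsl4 did not pass, though each passed as higher in 4 of 14 alternatives.

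**Figure D2:**
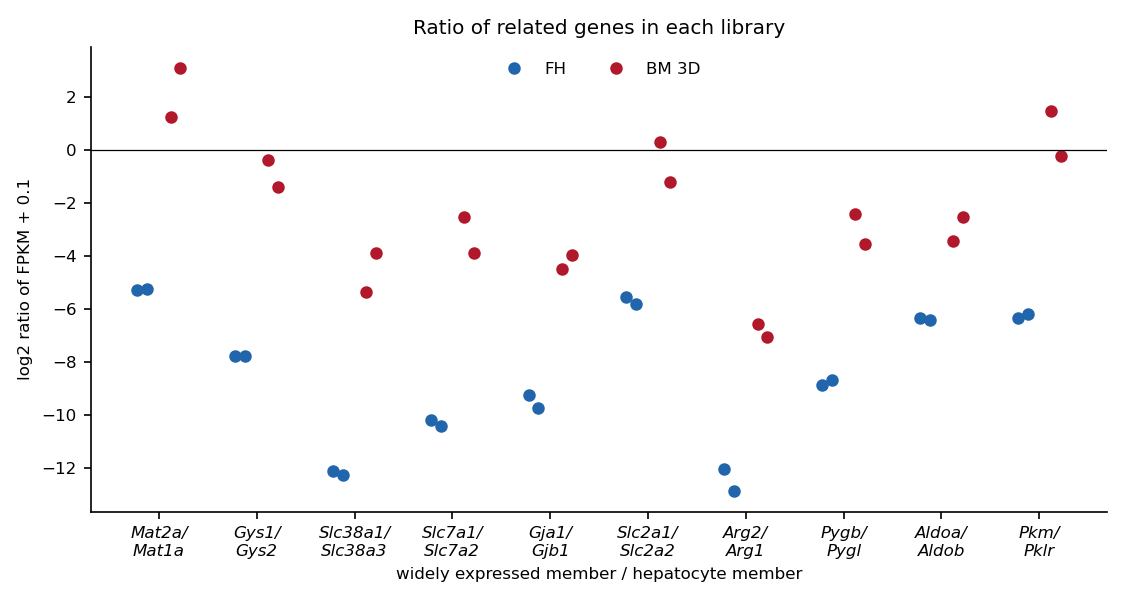
Each point is the log2 ratio of FPKM + 0.1 of a widely expressed gene to that of its hepatocyte relative in 1 library, with FH in blue and BM 3D in red. The 10 pairs were picked from the 21 after their values were seen, and in each of them both BM 3D libraries lie above both FH libraries, and Mat2a over Mat1a is above 0 in both BM 3D libraries.

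Lipid handling shifted in a selective way. Each of the 27 genes tested for fatty acid oxidation and ketone production fell (median -2.16), as did 21 of them by total counts alone. Cpt1a, which admits fatty acids to mitochondria, stood at 179.8 and 120.0 CPM against 1247 and 1223 CPM (log2 -3.04 ± 0.37, adjusted p = 1.77e-04). The omega-hydroxylase Cyp4a10, a classical PPAR-alpha target, was nearly lost, from 512 and 484 CPM to 1.17 and 0.690 CPM (log2 -9.04 ± 1.64). Genes of cholesterol synthesis and uptake moved little, with 2 rises (1 without FH 1, FH 2 or BM 3D 2), 2 falls (4 without BM 3D 2) and 18 that did not pass of 22 tested, and a median of -0.55 that became 0.37, with 7 rises and 1 fall, by total counts alone. Of 22 genes of fatty acid and triglyceride synthesis, 3 rose, 10 fell and 9 did not pass, or 6 rose and 6 fell by total counts alone. Scd2, a desaturase of non-liver tissues, rose from 2.94 and 0.871 CPM to 198 and 181 CPM (log2 6.63 ± 0.73, adjusted p = 1.11e-04), and Thrsp, a lipogenic gene of liver, fell (log2 -5.24 ± 0.62, adjusted p = 1.57e-04). Fasn and Scd1 did not pass. Of 22 genes of lipid droplets and fatty acid uptake, 5 rose, 8 fell and 9 did not pass. The 22.7% that rose was near the 22.5% of all genes, and 36.4% fell against 17.9% of all genes. By total counts alone the median went from -0.61 to 0.34 and the split to 10 rises and 7 falls. Fabp1, the liver fatty acid binding protein, fell from 4529.9 and 4496 CPM to 3.32 and 12.1 CPM (log2 -9.20 ± 1.603, adjusted p = 0.00123), while Fabp4, the adipocyte form, rose to 17.7 and 46.2 CPM from 0.954 and 1.58 CPM (log2 4.65 ± 0.93, adjusted p = 0.00267). The 5 rises became 3 without FH 1 or FH 2.

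Bile acid synthesis and transport genes lay far below the fresh level. Of 20 tested, 17 fell, 0 rose and 3 did not pass (median -4.10). Cyp7a1, the rate-limiting enzyme of bile acid synthesis (NCBI gene 13122, chromosome 4, 6265612 to 6275632 in GRCm38.p6), had 1109.8 and 1147 CPM in FH and 2.63 and 0.148 CPM in BM 3D (log2 -9.62 ± 1.53, adjusted p = 7.28e-04). BM 3D 2 held no more Cyp7a1 than the 3 counts used as a floor, and the FH mean was 812-fold the BM 3D mean. Cyp8b1, the 12-alpha-hydroxylase, went from 391 and 375 CPM to 0.972 and 0.296 CPM (log2 -9.18 ± 1.40) and Akr1c6, a steroid dehydrogenase, was at log2 -10.13 ± 1.37. The uptake carriers Slc10a1 (log2 -6.42 ± 1.07) and Slco1a1 (log2 -8.94 ± 0.87) fell with the export pump Abcb11 (log2 -4.63 ± 0.86). Slco1a4, another uptake carrier, did not pass.

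Drug-metabolising genes fell in number, with a few large exceptions. Of 46 cytochrome P450 genes, 29 fell, 2 rose and 15 did not pass (median -2.69). Cyp2e1, a pericentral P450 of ethanol metabolism, went from 19965 and 21058 CPM to 4.50 and 8.96 CPM (log2 -11.57 ± 1.72, adjusted p = 5.21e-04). It had been among the 10 genes with the highest FPKM in FH. Part of the fall came after the first day, when the BM 1D libraries held 648 and 1164 CPM (BM 3D against BM 1D, log2 -7.07 ± 1.45, adjusted p = 0.0213). Cyp2b10, a P450 induced through CAR, did the reverse (NCBI gene 13088, chromosome 7, 25897658 to 25926624 in GRCm38.p6). It went from 1.91 and 1.35 CPM in FH through 9.93 and 41.0 CPM in BM 1D to 679 and 320.2 CPM in BM 3D (log2 8.26 ± 0.93, adjusted p = 1.25e-04). At 3 weeks it was back to 0.274 and 1.20 CPM. The rise of Cyp2b10 thus stood beside the fall of Nr1i3 in the same BM 3D libraries. Cyp1a1, the aryl hydrocarbon receptor target, passed (log2 4.82 ± 1.68, adjusted p = 0.0403) through BM 3D 1 alone, which had 37.6 CPM against 0.690 CPM in BM 3D 2, and its call was lost without FH 1, FH 2 or BM 3D 1. Cyp3a11, the main PXR target, did not pass, with 949 and 982 CPM in FH and 2557 and 839 CPM in BM 3D. Por, the electron donor of microsomal P450s, fell (log2 -2.42 ± 0.27). The Cyp2b, Cyp2c and Cyp3a genes have near-identical relatives that read counting can confuse, so single members are uncertain.

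Of 47 conjugation enzymes, 30 fell, 3 rose and 14 did not pass (median -1.99, -1.87 with bounds), or 20 fell and 6 rose by total counts alone. Inmt, an amine methyltransferase, fell from 659 and 638 CPM to 0.122 and 0.296 CPM (log2 -11.60 ± 1.41, adjusted p = 1.78e-04) and Sult2a8, a sulfotransferase, from 2112 and 2115 CPM to 0.446 and 3.15 CPM (log2 -10.22 ± 0.97). The risers were glutathione transferases. Gsta1 went from 0.159 and 1.11 CPM to 168 and 46.0 CPM (log2 7.38 ± 1.45, adjusted p = 0.00244) and Gstp2 rose by log2 5.77 ± 0.68, while Gstm3 lost its call without FH 1, FH 2 or BM 3D 1. Of 28 hepatocyte solute carriers and ABC transporters, 24 fell and 0 rose (median -3.27). Slc22a7, an organic anion transporter, had 61.2 and 56.8 CPM in FH and 0 counts in both BM 3D libraries, which makes it at least 438-fold lower with a floor of 3 counts per library. Of 22 amino acid and drug transporters of wide expression, 15 rose, 2 fell and 5 did not pass (median 2.60). Slc7a11, the cystine importer, went from 0.0795 and 0.396 CPM to 227 and 44.6 CPM (log2 9.12 ± 1.80, adjusted p = 0.00305), and the export pumps Abcc1 (log2 5.54 ± 0.80), Abcc4 (log2 5.89 ± 1.21) and Abcc5 (log2 5.07 ± 0.38) rose with it.

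The RNA of the secretory hepatocyte was kept in part. Of 26 carriers and apolipoproteins of plasma, 13 fell, 0 rose and 13 did not pass (median -1.68). The 13 became 8 without FH 1, FH 2 or BM 3D 1. By total counts alone 9 of the 26 fell and 2 rose (median -0.78). Alb had 155088 and 149910.1 CPM in FH and 25442 and 71046 CPM in BM 3D. Both BM 3D libraries thus lay below FH but far from each other, and the difference did not pass (log2 -1.66 ± 1.09, adjusted p = 0.243). Hpx, the haem carrier haemopexin, stood at 8153 and 9804 CPM against 4548 and 4421 CPM (log2 1.00 ± 0.44, adjusted p = 0.0907), above FH in both libraries without passing. Apoa1 (5649.5 and 4690.1 CPM against 12135 and 12958 CPM) and Ahsg did not pass, and Alb, Hpx and Apoa1 had the 3 highest mean FPKM values of BM 3D. Apoa5 (log2 -6.51 ± 1.21) and Apoa2 (log2 -4.98 ± 1.03), of lipoprotein metabolism, fell. Of 39 coagulation and complement genes, 31 fell and 0 rose (median -2.87), with 20 falls without BM 3D 1. Klkb1, plasma prekallikrein (log2 -5.96 ± 0.84), and C9, the pore-forming complement protein (log2 -5.91 ± 0.84), fell. Of 25 acute phase and iron genes, 2 rose, 7 fell and 16 did not pass, with a median of -0.84 that became 0.05, with 6 rises and 6 falls, by total counts alone. Lcn2, the iron-scavenging lipocalin of injured epithelium, rose from 16.6 and 15.8 CPM to 1732 and 2978 CPM (log2 7.18 ± 1.44, adjusted p = 0.00267). That placed Lcn2 among the 15 genes of highest mean FPKM in BM 3D. Saa3, the other riser, lost its call without FH 1, FH 2 or BM 3D 1. Hamp, hepcidin, the iron hormone, fell from 464 and 502 CPM to 5.06 and 2.56 CPM (log2 -6.98 ± 0.80, adjusted p = 1.31e-04).

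Hepatocytes near the central vein and near the portal vein express different enzymes, and both sets fell. Of 20 pericentral genes, 18 fell, 1 rose and 1 did not pass (median -4.39). Of 17 periportal genes, 14 fell, 1 rose and 2 did not pass (median -4.38). Slc1a2, a pericentral glutamate transporter, had 689 and 654 CPM in FH and 0.689 and 0.443 CPM in BM 3D (log2 -10.18 ± 0.41, adjusted p = 8.56e-07). Rgn (log2 -8.32 ± 1.34) and Notum, a Wnt inhibitor that pericentral cells secrete (log2 -7.32 ± 0.64), fell as well. Beside Pck1, described above, the periportal falls included Hsd17b6 (log2 -6.72 ± 0.98) and Sds (log2 -6.22 ± 1.17). By total counts alone 3 periportal genes rose. With TMM the exceptions were the amino acid transporter Slc1a4 (log2 4.17 ± 0.42) on the pericentral list and Cdh1, E-cadherin (log2 1.34 ± 0.25), on the periportal list.

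**Figure D3:**
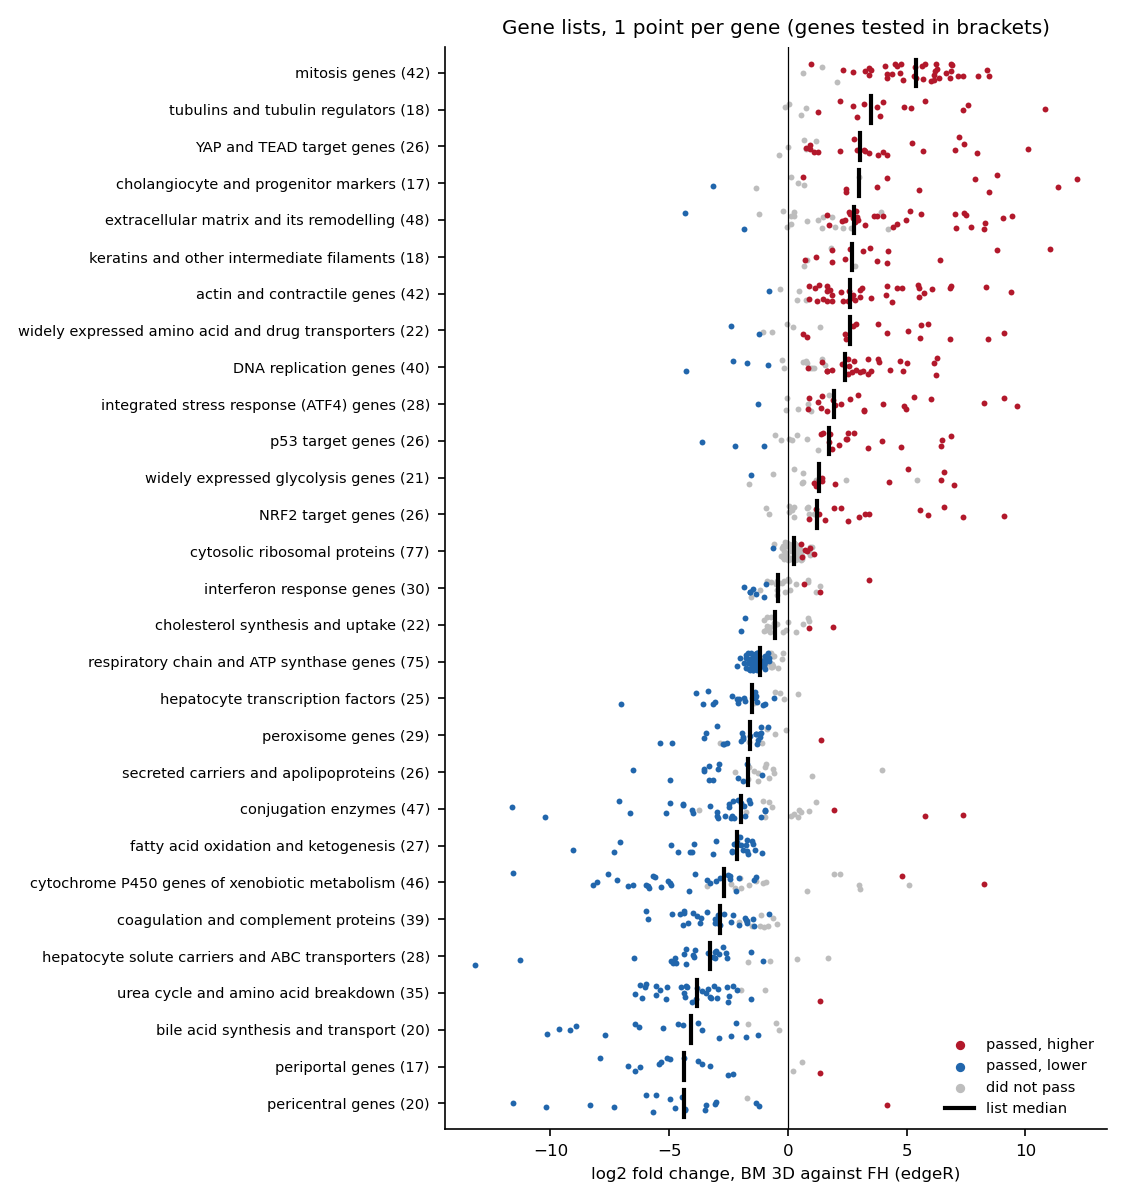
Each row is 1 of 29 gene lists, with 1 point per gene tested at its edgeR log2 fold change, red or blue where it passed and grey where it did not, and a black bar at the list's median. Medians run from -4.39 for pericentral genes to 5.39 for mitosis genes. Vertical scatter within a row has no meaning.

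Organelle genes moved by smaller steps, where the choice of scaling counts. Of 75 nuclear genes of the respiratory chain and ATP synthase, 51 fell, 0 rose and 24 did not pass (median -1.18). The falls numbered 32 without FH 2. By total counts alone 11 fell and 1 rose, with a median of -0.24. Sdha, a subunit of succinate dehydrogenase, fell under each scaling (log2 -1.86 ± 0.27, adjusted p = 5.00e-04). Of 29 peroxisome genes, 22 fell, 1 rose and 6 did not pass (median -1.59, -1.35 with bounds), or 10 fell and 2 rose by total counts alone (median -0.63). Nudt7, a peroxisomal coenzyme A hydrolase, went from 1105 and 1093 CPM to 29.8 and 22.0 CPM (log2 -5.41 ± 0.36, adjusted p = 9.65e-06). Of 77 cytosolic ribosomal protein genes 70 did not pass, and 72 were called higher by total counts alone (median 0.27 against 1.22). Proteasome subunits did not move as a group with TMM (4 rises and 7 falls of 41, 26 rises and 0 falls by total counts alone). ER chaperones gave 7 falls and 0 rises of 23, against 10 rises by total counts alone. The medians of the proteasome list (-0.11 to 0.84) and the ER list (-0.25 to 0.68) thus turned sign with the scaling, and the ribosomal median did not. Without FH 1 the ribosomal rises went from 6 to 1, the proteasome falls to 1 and rises to 2, and the ER falls to 4. Without FH 2 these were 1, 2, 2 and 4, and without BM 3D 1 the ribosomal rises were 2, the proteasome falls 2 and the ER falls 3.

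Stress response genes rose in several groups. Of 28 genes of the integrated stress response, the ATF4 programme for amino acid supply, 21 rose, 1 fell and 6 did not pass (median 1.94, 13 rises without FH 1). Phgdh and Psat1 make serine from a glycolytic intermediate. Phgdh went from 0.159 and 0 CPM to 84.0 and 54.2 CPM (ratio 889.6, 95% counting interval 246 to 7349, adjusted p = 0.00109) and Psat1 rose by log2 8.24 ± 0.99. Asns, asparagine synthetase (log2 2.97 ± 0.34), and the mitochondrial folate enzyme Mthfd2 (log2 6.03 ± 0.73) rose too, whereas Shmt2, its partner in mitochondrial folate metabolism, fell (log2 -1.25 ± 0.34, adjusted p = 0.0131), not passing by total counts alone or without FH 1, FH 2 or BM 3D 1. Of 26 p53 targets, 16 rose, 3 fell and 7 did not pass (median 1.74). Cdkn1a, the p21 inhibitor of cyclin-dependent kinases, had 1.75 and 1.504 CPM in FH and 111 and 183 CPM in BM 3D (log2 6.49 ± 0.51, adjusted p = 2.19e-05). Tnfrsf10b, a death receptor (log2 6.89 ± 0.69), and Zmat3 (log2 2.78 ± 0.29) rose, and Dcxr, Plk3 and Fas fell, Fas not by total counts alone or without FH 1, FH 2 or BM 3D 2. Of 26 NRF2 targets, 15 rose, 11 did not pass and 0 fell (median 1.23). Hmox1, haem oxygenase, stood at 100.1 and 85.9 CPM against 10.02 and 7.52 CPM (log2 3.41 ± 0.48, adjusted p = 3.74e-04). It had been higher on day 1, at 549 and 457 CPM (BM 3D against BM 1D, log2 -2.43 ± 0.45, adjusted p = 0.0142).

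Among early response and inflammatory genes the changes were mixed in kind. Of 29 AP-1, Egr and related genes, 15 rose, 2 fell and 12 did not pass (median 1.08), with 9 rises without FH 1 and 1 fall by total counts alone. Fosl1, an AP-1 subunit of spread and injured epithelium, had 0 counts in FH and 11.8 and 14.2 CPM in BM 3D, at least 54.7-fold higher. Klf6 rose from 5.65 and 4.04 CPM to 444 and 398 CPM (log2 6.44 ± 0.51, adjusted p = 2.24e-05). Jun fell (log2 -1.299 ± 0.18, adjusted p = 3.67e-04, not passing by total counts alone), and Fos did not pass. Of 31 NF-kB and chemokine genes, 18 rose, 5 fell and 8 did not pass (median 1.45). The rises numbered 11 without FH 2, and the falls 3 by total counts alone. Ccl2, which recruits monocytes, went from 0.239 and 0.237 CPM to 176 and 86.5 CPM (log2 9.07 ± 1.11, adjusted p = 1.78e-04), while Cxcl12 fell from 410.4 and 424 CPM to 29.7 and 40.2 CPM (log2 -3.58 ± 0.38, adjusted p = 8.53e-05). Of 30 interferon response genes, 20 did not pass, 3 rose and 7 fell, with the median of -0.41 turning to 0.54, with 10 rises and 0 falls, by total counts alone. The 7 falls were 2 without FH 1 and 4 without BM 3D 1, and the 3 rises 1 without FH 1, FH 2 or BM 3D 2. Against BM 1D, 11 of these 30 genes fell and 2 rose (1.6% and 3.67% of all genes).

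YAP and TEAD target genes were high. Of 26 tested, 21 rose, 5 did not pass and 0 fell, with a median of 3.05. Ctgf, a secreted matricellular protein, had 1.91 and 1.66 CPM in FH and 351 and 535 CPM in BM 3D (log2 7.95 ± 0.79, adjusted p = 7.06e-05). The BM 3D mean was 248-fold the FH mean. Ankrd1, an ankyrin repeat protein, went from 0.477 and 0.317 CPM to 105 and 33.7 CPM (log2 7.43 ± 1.00, adjusted p = 3.00e-04). Cyr61 went from 14.9 and 12.7 CPM to 316 and 127 CPM (log2 4.003 ± 0.93, adjusted p = 0.00598), and its call was lost without FH 2. Tead1, the DNA-binding partner, stood at 124 and 98.2 CPM against 12.4 and 11.7 CPM (log2 3.20 ± 0.41, adjusted p = 2.38e-04), and Ajuba, a LIM protein that restrains the LATS kinases, rose (log2 4.19 ± 0.37, adjusted p = 4.49e-05). Axl and Dlc1 were among the 5 that did not pass. The windows of 250 bases before the RefSeq start of Ankrd1 (chr19:36119845-36120094, minus strand) and Cyr61 (chr3:145649986-145650235, minus strand), in GRCm38.p6, are shown because they hold the letters of a TEAD motif, GGAATG on either strand, in capitals.
Ankrd1: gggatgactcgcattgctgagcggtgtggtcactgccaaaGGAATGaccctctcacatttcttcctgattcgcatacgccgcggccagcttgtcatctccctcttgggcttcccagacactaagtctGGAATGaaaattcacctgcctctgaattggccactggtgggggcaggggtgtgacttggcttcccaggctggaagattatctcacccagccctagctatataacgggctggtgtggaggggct
Cyr61: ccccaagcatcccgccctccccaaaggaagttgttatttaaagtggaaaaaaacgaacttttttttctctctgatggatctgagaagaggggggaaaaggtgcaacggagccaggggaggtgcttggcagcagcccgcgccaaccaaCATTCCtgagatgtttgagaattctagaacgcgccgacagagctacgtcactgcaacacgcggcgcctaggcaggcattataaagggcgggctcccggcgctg
GGAATG was found in 29.2% of the 24 windows of the YAP list and in 12.6% of all 32851 windows. It was also found in 32.1% of the 28 windows of the hepatocyte solute carrier and ABC transporter list. In that list 24 genes fell and 0 rose. The matches shown do not overlap each other. A match describes the sequence and is not a measured binding site.

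Ligands and receptors of growth signals moved in both directions. Of 28 genes of EGFR, MET and FGF signalling, 11 rose, 9 fell and 8 did not pass, with a median of -0.28 that became 0.59 by total counts alone. The 11 rises became 7 without FH 1 or FH 2, and the 9 falls 5, or 4 by total counts alone. The ligand Tgfa rose (log2 1.82 ± 0.20), and Ereg, with 0 counts in FH and 2.43 and 1.28 CPM in BM 3D, was at least 7.80-fold higher. The receptor Erbb4 fell from 22.9 and 22.3 CPM to 0.0810 and 0.0985 CPM (log2 -7.89 ± 0.84, adjusted p = 9.10e-05). Of 34 genes of TGF-beta, activin and BMP signalling, 16 rose, 2 fell and 16 did not pass (median 1.18), with 7 rises without FH 1, 8 without FH 2 and 9 without BM 3D 2, and 24 rises and 1 fall by total counts alone. Tgfb2, a ligand, rose by log2 7.04 ± 0.97 and Inhbc, the liver-enriched activin subunit, fell by 3.19 on the log2 scale. Genes of the insulin, growth hormone and IGF axis moved both ways, with 6 rises, 12 falls and 6 genes that did not pass of 24 (median -1.09), or 8 rises and 8 falls by total counts alone. With TMM the 25% that rose was near the 22.5% of all genes, and 50% fell against 17.9%. Ghr, the growth hormone receptor (log2 -4.06 ± 0.45), Igf1, its hormone output (log2 -4.95 ± 0.86), and Igfbp2 (log2 -6.53 ± 0.65) fell, and Igfbp3 rose (log2 5.23 ± 0.69). Of 36 Notch and Wnt genes, 12 rose, 5 fell and 19 did not pass (median 1.28, 1.00 with bounds). The 12 became 6 without FH 1, 5 without FH 2 and 7 without BM 3D 2, and the 5 falls 3 without FH 1 or FH 2. By total counts alone 18 rose and 1 fell. Sox4, a progenitor factor (log2 8.24 ± 1.64), the ligand Jag1 (log2 3.94 ± 0.58) and Notch1 (log2 2.43 ± 0.29) rose.

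Clock genes moved apart. Of 20 genes of the circadian clock and its outputs, 11 fell, 2 rose and 7 did not pass (median -1.73), or 10 fell and 6 rose by total counts alone. Dbp, a clock output factor, had 129.7 and 134 CPM in FH and 0.972 and 0.148 CPM in BM 3D (log2 -7.81 ± 0.78, adjusted p = 7.06e-05), and Per3 (log2 -3.89 ± 0.31) and Nr1d1 (log2 -2.65 ± 0.26), repressors of the loop, fell with it. Arntl, the activator BMAL1, rose from 1.43 and 2.22 CPM to 21.1 and 25.3 CPM (log2 3.66 ± 0.38, adjusted p = 8.01e-05), as did its relative Npas2, which had 0 counts in FH and 2.63 and 9.80 CPM in BM 3D. The labels do not give the hour at which cells were taken, and its part in these changes was not tested.

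Cytoskeleton genes rose in large numbers. Of 42 actin and contractile genes, 37 rose, 1 fell and 4 did not pass (median 2.62). Actb, cytoplasmic beta-actin, had 364 and 368 CPM in FH and 1474 and 2228 CPM in BM 3D (log2 2.34 ± 0.35, adjusted p = 5.71e-04). Tagln2, an actin-binding protein, rose from 8.27 and 5.22 CPM to 289 and 329 CPM (log2 5.52 ± 0.33, adjusted p = 6.68e-06). Tmsb10, a thymosin that binds actin monomers, rose by log2 8.34 ± 1.65. Rdx, radixin, which ties actin to the canalicular membrane, fell (log2 -0.80 ± 0.27, adjusted p = 0.0375), a call lost without FH 1, FH 2 or BM 3D 2 and a sign that turned by total counts alone. Of 18 tubulin genes, 14 rose and 0 fell (median 3.48), with Tubb2a at log2 5.19 ± 0.36 and Tubb6 at log2 5.76 ± 0.46. Of 18 keratins and other intermediate filaments, 14 rose and 0 fell (median 2.71), or 8 without FH 2. Krt8 went from 198 and 210.4 CPM to 1383 and 3131 CPM (log2 3.47 ± 0.45, adjusted p = 2.60e-04) and its partner Krt18 from 125 and 134 CPM to 1032 and 2394 CPM (log2 3.73 ± 0.51, adjusted p = 3.15e-04). Vim, vimentin, of mesenchymal and cultured cells, rose from 3.26 and 2.93 CPM to 199.9 and 318 CPM (log2 6.38 ± 0.69, adjusted p = 9.68e-05). Of 20 annexins and S100 proteins, 8 rose, 3 fell and 9 did not pass, or 14 rose and 1 fell by total counts alone. Anxa2 (474 and 856 CPM against 1.91 and 2.77 CPM, log2 8.15 ± 1.08), Anxa3 (log2 8.20 ± 1.23) and S100a11 (log2 8.61 ± 0.83) were among the largest rises, and the 3 falls became 1 without FH 1, FH 2 or BM 3D 1.

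Adhesion, matrix and junction genes changed member by member. Of 36 integrin and focal adhesion genes, 22 rose, 2 fell and 12 did not pass (median 1.41), with 14 rises without FH 1 and 0 falls without FH 1 or FH 2. Itga3, the alpha chain of a laminin receptor, rose by log2 4.63 ± 0.48 and Tln1, talin, by log2 1.55 ± 0.21. Of 48 matrix genes, 29 rose, 2 fell and 17 did not pass (median 2.79, 2.71 with bounds). Thbs1, thrombospondin (log2 8.25 ± 0.87), Plat, the tissue plasminogen activator (2 counts in FH, ratio 781, 95% counting interval 216 to 6449), and Lamc1 (log2 2.96 ± 0.28) rose. Fn1, fibronectin, was abundant in both groups, at 4774 and 4653 CPM in FH and 5774 and 17126 CPM in BM 3D, and did not pass (log2 1.28 ± 0.65, adjusted p = 0.139). Col1a1, of type I collagen, passed at low levels (5.67 and 27.3 CPM against 0.477 and 0.871 CPM, log2 4.596 ± 0.79, adjusted p = 0.00113), ahead of 2092 and 4165 CPM at 3 weeks. Of 32 junction genes, 17 rose, 5 fell and 10 did not pass (median 1.15, 1.10 with bounds), with 8 rises and 3 falls without FH 1 or FH 2 and 3 falls without BM 3D 1, and 23 rises and 2 falls by total counts alone. Cldn4 had 0 counts in FH and 14.2 and 43.9 CPM in BM 3D, at least 122-fold higher, and Cgn, cingulin, rose (log2 3.07 ± 0.25, adjusted p = 2.76e-05). Gjb1, the main gap junction protein of hepatocytes, fell from 793 and 778 CPM to 75.4 and 107 CPM (log2 -3.10 ± 0.44, adjusted p = 4.20e-04). Cdh1 rose from 9.68 and 9.55 to 54.4 and 41.4 FPKM, while Cdh2, N-cadherin, stood at 11.9 and 12.8 FPKM in FH and 14.4 and 11.8 FPKM in BM 3D, and its small fall by TMM-scaled counts (log2 -0.91 ± 0.31, adjusted p = 0.0363) was lost without any 1 of the 4 libraries and turned sign by total counts alone. Of 13 transcription factors of the epithelial-mesenchymal transition, Snai1, Tcf3 and Tcf4 rose and 10 did not pass, with 1 rise without FH 1 or BM 3D 2 and 0 without FH 2, and 8 by total counts alone. The share that rose, 23.1%, was near the 22.5% of all genes. Zeb1, Zeb2 and Twist1 were among the 10 that did not pass.

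Genes of the dividing cell were higher in both BM 3D libraries, and much more so in BM 3D 1. Of 42 mitosis genes, 39 rose, 0 fell and 3 did not pass (median 5.39, 5.34 with bounds). Mki67, the proliferation marker Ki-67, had 1.35 and 1.58 CPM in FH and 188 CPM in BM 3D 1 but 23.4 CPM in BM 3D 2 (log2 6.16 ± 1.18, adjusted p = 0.00204). Cdk1, the mitotic kinase, had 0.875 and 1.11 CPM in FH and 32.9 and 9.16 CPM in BM 3D (log2 4.401 ± 0.67, adjusted p = 5.71e-04). Ccnb1, its cyclin, had 0.0795 and 0 CPM and 27.7 and 4.68 CPM, with 1 count in FH (ratio 437, 95% counting interval 78.1 to 17264, adjusted p = 3.46e-04). Each of the 42 genes was higher in BM 3D 1 than in BM 3D 2, with a median ratio of BM 3D 2 to BM 3D 1 of -2.37 on the log2 scale, yet without BM 3D 1 30 of them still rose. Of 40 DNA replication genes, 26 rose, 4 fell and 10 did not pass (median 2.42), with 14 rises without BM 3D 1, 16 without FH 1, and 2 falls without BM 3D 2 or by total counts alone. Mcm2, of the replicative helicase, rose (log2 4.73 ± 0.54). Mcm10 went the other way, from 144 and 156 CPM in FH to 11.7 and 3.65 CPM (log2 -4.28 ± 0.46, adjusted p = 9.69e-05), as did Tk1, thymidine kinase (log2 -2.30 ± 0.47). Of 31 cyclins, kinases, inhibitors and E2F genes, 16 rose, 2 fell and 13 did not pass, with 10 rises without FH 1 or FH 2. Ccnd1, cyclin D1, stood at 96.7 and 32.5 CPM against 26.3 and 25.01 CPM and did not pass, though it was above its BM 1D level of 3.29 and 4.27 CPM (log2 4.09 ± 0.71, adjusted p = 0.0115). The rise in mitosis genes stood beside that of Cdkn1a in the same 2 libraries.

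Windows before mitosis genes often held letters that were not used to make the list. The letters CCAAT, on either strand, were found in 84.2% of the 38 upstream windows of the mitosis list, 62.2% of the 37 windows of the replication list, 35.1% of the windows of all tested genes and 33.85% of all windows. TTTGAA is the core of the cell cycle homology region. It was found in 36.8% of the mitosis windows, 11.1% of the windows of all tested genes and 15.99% of all windows. The searched window of Ccnb1 held none. TTTGAA was also found in 32.6% of the 46 P450 windows and 26.0% of the 50 conjugation enzyme windows, lists where more genes fell than rose. The share was 27.6% for the 29 windows of widely expressed transporters, where more rose than fell. CCAAT was as common before the genes of ER chaperones (85%) and cholesterol synthesis (83.3%), which did not rise as groups. The windows of Cdk1 (chr10:69352913-69353162), Ccnb2 (chr9:70421555-70421804) and Cdc20 (chr4:118437344-118437593) are each on the minus strand of GRCm38.p6 and end at the base before the RefSeq start. They are shown, with both motifs in capitals, because each holds TTTGAA and repeated CCAAT. In Ccnb2 the motifs are not close together, with TTTGAA 167 bases before the start and the nearest CCAAT at 87.
Cdk1: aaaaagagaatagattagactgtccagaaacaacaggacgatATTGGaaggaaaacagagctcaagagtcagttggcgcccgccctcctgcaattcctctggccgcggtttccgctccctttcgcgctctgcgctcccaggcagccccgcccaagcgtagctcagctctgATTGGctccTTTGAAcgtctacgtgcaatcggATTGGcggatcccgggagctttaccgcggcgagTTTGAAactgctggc
Ccnb2: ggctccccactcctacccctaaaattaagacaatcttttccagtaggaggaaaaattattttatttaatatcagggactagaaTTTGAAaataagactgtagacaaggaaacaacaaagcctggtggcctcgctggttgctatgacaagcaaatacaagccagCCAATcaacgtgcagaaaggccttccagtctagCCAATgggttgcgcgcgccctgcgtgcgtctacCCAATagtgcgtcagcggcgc
Cdc20: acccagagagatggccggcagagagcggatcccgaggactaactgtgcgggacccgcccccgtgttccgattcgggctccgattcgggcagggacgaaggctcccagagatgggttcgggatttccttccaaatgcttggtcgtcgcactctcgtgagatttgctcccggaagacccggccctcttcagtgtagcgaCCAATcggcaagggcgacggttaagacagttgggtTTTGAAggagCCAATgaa
No capitals of one motif overlap those of the other. Ccnb2, a mitotic cyclin, had 0.557 and 0.317 CPM in FH and 15.5 and 6.06 CPM in BM 3D, and Cdc20, the activator of the anaphase ligase, had 0.477 and 0 CPM and 19.8 and 5.47 CPM.

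**Figure D4:**
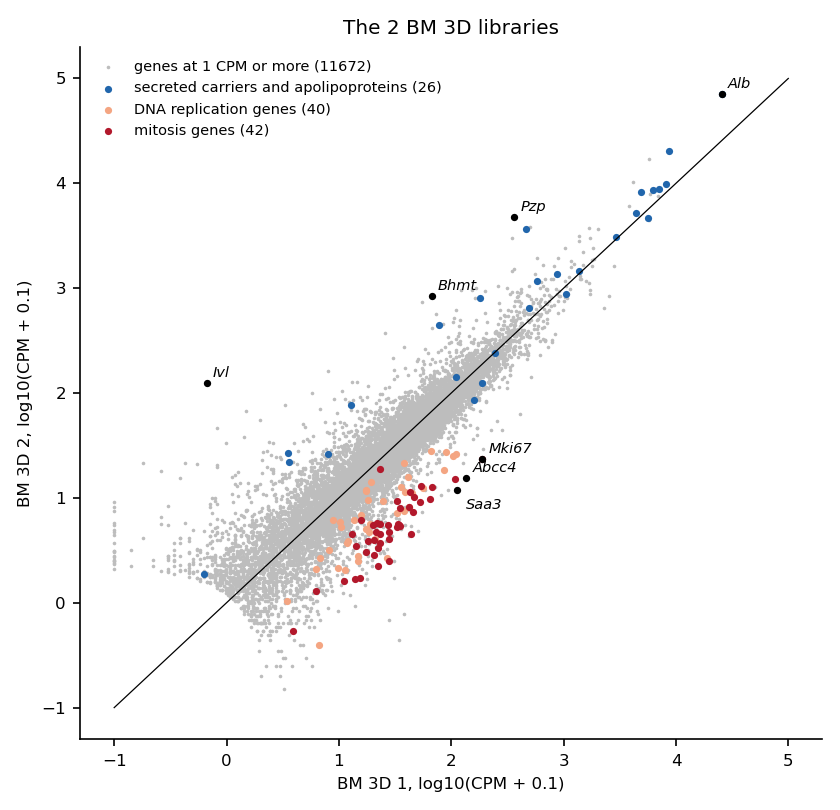
Each point is 1 of 11672 genes averaging at least 1 CPM in BM 3D, with BM 3D 1 on the x axis and BM 3D 2 on the y axis (log10 of CPM + 0.1) and the line of equal levels. The mitosis genes (red) and the DNA replication genes (orange) lie below the line, and most secreted carriers (blue) lie on or above it.

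The BM 3D libraries also differed outside the cell cycle. Among genes at 50 CPM or more, Ivl, involucrin of the squamous epithelium, had the largest gap, with 0.567 CPM in BM 3D 1 and 125 CPM in BM 3D 2. BM 3D 2 was higher in Bhmt, of methionine metabolism (66.8 and 833 CPM), in Pzp, a plasma protease inhibitor (365 and 4762 CPM), and in Afp, alpha-fetoprotein (14.5 and 127 CPM). BM 3D 1 was higher in the export pump Abcc4 (135 and 15.4 CPM) and the acute phase gene Saa3 (113 and 11.7 CPM). Of the 26 secreted carriers 21 were higher in BM 3D 2, as were 21 of the 25 hepatocyte transcription factors and 40 of the 48 matrix genes. Of the 42 mitosis and 40 replication genes 0 were. What set the libraries apart was not tested.

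Markers of other cells were checked, since a hepatocyte preparation can hold them and culture can select among them. Of 20 Kupffer cell and macrophage markers, 7 fell, 2 rose and 11 did not pass (median -0.79). By total counts alone 5 fell and 3 rose, and the median turned to 0.14. Their summed TMM-scaled level was between 129 and 181 CPM in BM 3D and between 142 and 204 CPM in FH. Clec4f, a marker of Kupffer cells, had 27.3 and 17.1 CPM in FH and 0.810 and 2.32 CPM in BM 3D (log2 -3.84 ± 0.62, adjusted p = 0.00111). Of 20 sinusoidal endothelial markers, 1 rose, 2 fell and 17 did not pass, with a summed level between 235 and 298 CPM in FH and between 310.3 and 418 CPM in BM 3D. The rise was lost without FH 1, FH 2 or BM 3D 1, the falls were 1 without BM 3D 1, and by total counts alone 6 rose. Of 22 stellate cell and fibroblast markers, 15 did not pass, 6 rose (27.3%, against 22.5% of all genes) and 1 fell. Their summed level was between 162 and 192 CPM in FH and between 142 and 421 CPM in BM 3D. In BM 3W it was between 11577 and 15028 CPM. The 6 rises were 3 without FH 2, and the fall was lost without BM 3D 1. Of 17 cholangiocyte and progenitor markers, 5 did not pass, 11 rose and 1 fell (median 3.01, 2.66 with bounds), with 4 rises without FH 2 and the fall lost without FH 1, FH 2 or BM 3D 1. Their summed level was between 194 and 197 CPM in FH and between 449 and 1048 CPM in BM 3D, and 3 of the 20 listed had too few reads to be tested. Cd24a, a surface protein of progenitor and biliary cells, went from 0.398 and 0.871 CPM to 191 and 259 CPM (log2 8.45 ± 1.44, adjusted p = 0.00107), and Tspan8 had 0 counts in FH and 23.5 and 9.999 CPM in BM 3D. Krt19, a biliary keratin, stood at 10.2 and 30.9 CPM, with 1 count in FH, and its call was lost without FH 2. Epcam, which marks bile duct cells, had 1.82 and 1.28 CPM, and its call was lost without FH 2 or BM 3D 1. Of 9 neutrophil and erythroid markers tested, 2 fell (22.2%, against 17.9% of all genes), 0 rose and 7 did not pass. Alas2, the erythroid enzyme of haem synthesis, fell from 169 and 170.1 CPM to 0.608 and 0.690 CPM (log2 -8.02 ± 0.84, adjusted p = 8.42e-05). The summed FH level of the whole list was 170.8 and 171.3 CPM, nearly all of it Alas2, so the other members were near 0 in FH. The part of other cells in these differences was not tested.

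Some genes were counted in one group only. In all, 27 genes had 0 counts in both FH libraries and at least 5 CPM in both BM 3D libraries. F2rl1, a protease-activated receptor, was the highest, with 50.5 and 51.1 CPM, at least 213-fold higher by the floor of 3 counts per library. Creb5, a transcription factor (50.5 and 44.2 CPM, at least 199-fold), Nrg1, an ERBB ligand (47.7 and 45.9 CPM, at least 197-fold), and Flnc, a filamin (41.9 and 17.9 CPM, at least 126-fold), followed. Krt20, a keratin of gut and urothelium, had 13.3 and 13.1 CPM. In the other direction, 7 genes had 0 counts in BM 3D, among them Slc22a7, Slc22a28 (17.1 and 13.8 CPM in FH), the erythroid carbonic anhydrase Car1 (17.02 and 20.1 CPM) and Prok1 (13.4 and 15.3 CPM). Of larger falls among genes still detected, Hsd3b5, a male-biased steroid dehydrogenase, went from 411 and 422 CPM to 0 and 0.0985 CPM (ratio 9374, 95% counting interval 2594 to 77413, adjusted p = 5.39e-06), and Car3, a carbonic anhydrase of fresh hepatocytes, from 3211 and 3346 CPM to 0.648 and 9.80 CPM (log2 -9.30 ± 1.54, adjusted p = 9.38e-04).

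Genes still moved between the days sampled. Against BM 1D, 742 genes changed (5.26%), with 517 higher and 225 lower, but this edgeR count fell to 180 with BM 1D 1 left out and to 404 with BM 3D 1 left out, and DESeq2 gave 1750. It was 0 when only those 2 groups were fitted, where 1819 genes had an unadjusted p under 0.05. Among the 517 were 32 of the 42 mitosis genes, higher in BM 3D (3.67% of all genes were). Cenpf, a kinetochore protein, had 0 counts in BM 1D and 34.7 and 5.27 CPM in BM 3D (adjusted p = 0.00963). From BM 3D to BM 3W, 3447 genes changed (24.4%), 1906 higher and 1541 lower, with 2237 without BM 3D 1, 2126 without BM 3W 1 and 1693 without BM 3W 2. Of the 48 matrix genes 33 were higher at 3 weeks (13.5% of all genes) and 0 lower, as were 19 of 22 stellate cell and fibroblast markers and 17 of 20 Kupffer cell and macrophage markers. Clec4f was the Kupffer marker that fell further, to 0.240 and 0.0898 CPM (log2 -3.21 ± 0.73, adjusted p = 0.0119). Acta2, smooth muscle actin, had 6.44 and 10.5 CPM in BM 3D and 816 and 626 CPM in BM 3W (log2 6.41 ± 0.59, adjusted p = 6.69e-05). Urea cycle and amino acid genes went lower still, with 26 of 35 lower at 3 weeks (10.9% of all genes) and 0 higher. Cps1 stood at 72.5 and 9.07 CPM there (log2 -6.07 ± 0.95, adjusted p = 0.00142). Pericentral genes went partly the other way, with 9 of 20 higher than in BM 3D and 2 lower.

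**Figure D5:**
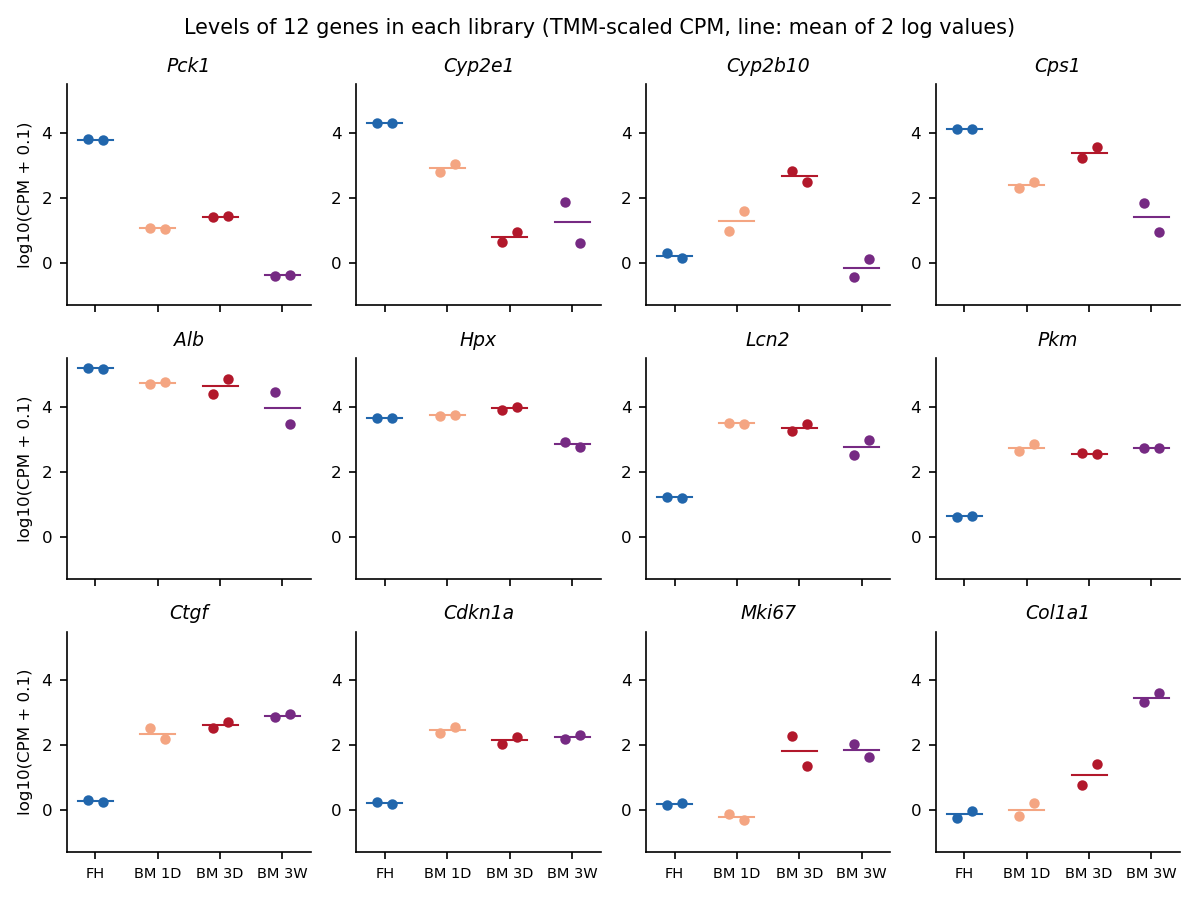
Each panel shows 1 gene in the FH, BM 1D, BM 3D and BM 3W libraries as log10 of TMM-scaled CPM + 0.1, with 1 point per library and a line at the mean of the 2 log values. Cyp2b10 and Cps1 are higher in both BM 3D libraries than in BM 1D or BM 3W, Mki67 rises between BM 1D and BM 3D, and Col1a1 is highest in BM 3W.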

How the data were processed

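RNA of mouse hepatocytes was sequenced as 14 libraries in 7 groups of 2, and the 4 libraries BM 3D and FH were compared. The groups were FH, BM 1D, BM 3D, BM 3W, LBDXL 3W, FH YAP-/- and BM 3W YAP-/-. Per the labels' protocols, RNA was isolated with RNeasy, libraries were made with the TruSeq Stranded mRNA kit and read paired-end on a HiSeq. The submitters' processing notes name Trimmomatic, HISAT2, Cufflinks, HTSeq, DESeq and the build GRCm38.p6, with no versions or roles. The authors deposited 1 table of raw read counts and 1 of FPKM values (reads per length and depth), each for 21878 genes. No label gives the strand setting of the counting, so overlapping and antisense genes, and families of near-identical genes (Cyp2b, Cyp2c, Cyp3a, Sult, Mup, Ugt), are uncertain. Symbols of 27 genes were restored by NCBI gene ID.

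Counts of all 14 libraries (15501005 to 21220365 each) were fitted with edgeR 4.0.16 in R 4.3.3: filterByExpr kept 14100 genes, TMM scaled the libraries, and glmQLFTest p-values were adjusted by Benjamini-Hochberg over all 14100 with a threshold of 0.05. The standard error is the log2 fold change divided by the root of F. A fold against a group at 0 counts uses a floor of 3 counts per library, and a ratio against 1 to 3 counts has an exact binomial 95% interval. Reads carry no molecular identifiers, so such intervals and floors cover counting error only. Alternatives used other scalings, filters, library sets, limma 3.58.1 on the deposited FPKM with pseudocounts of 1 and 0.1 and a mean of at least 0.5, DESeq2 1.42.0 and a replicate block. In simulated data for BM 3D against FH over 14100 genes, with 50 genes changed at each size, log2 changes of 1, 2, 3 and 4 were recovered in 8%, 90%, 100% and 98%, with 4 false calls. The changed genes were drawn from those well read in FH, with as many rises as falls, and all other genes were set equal. Each gene had 1 spread for all groups. The real comparison called 40.5% of genes and its groups differed in spread, so these rates do not measure its errors. Promoter windows are from RefSeq tables of GRCm38.p6, in which 11213 genes of the table matched by NCBI gene ID. Python 3.11.15, pandas 2.3.3 and matplotlib 3.10.9 were used for tables and plots.

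Gene lists and the genes named were chosen with earlier results of these data known. A gene could be named from a panel of hepatocyte and culture genes, from pairs of related genes, or from the 20 largest rises or falls (10 CPM or more, no overlap of libraries). Others came from the called list members with the smallest p or largest change, members that did not pass or moved against their list, the 15 genes of highest FPKM, the 15 with the largest gap between the BM 3D libraries, genes at 0 counts in one group and cell markers. Among these, preference went, after values were seen, to genes that kept their call, and Cdc20 and Epcam were named outside the rule after their values were seen. Some genes are not reported here.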

Additional observations from a re-analysis of the deposited data

How the results depend on the processing

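The 5705 calls of BM 3D against FH were between 4629 and 6255 with DESeq2 size factors, DESeq2's Wald test, no low-count filter, only the 4 libraries, the 20 most abundant genes removed, a log2 limit of 1 or a replicate block. Scaling moved the split of 3175 higher to 2530 lower. Total counts alone gave 8613 calls, 7575 higher and 1038 lower, and shared 4220 calls with TMM. Limma gave 6463 higher and 1063 lower on log2(FPKM + 1), 6702 and 1049 on log2(FPKM + 0.1), and 6603 and 1143 with no filter. With 1 library left out, so that the lone library is assumed to vary like the other groups, calls ranged from 3461 to 4987, with 1782 to 2833 higher and 1679 to 2154 lower. BM 3D against BM 1D, at 742, gave 1750 with DESeq2, 0 with edgeR on those 4 libraries alone and 180 to 588 with 1 library left out. BM 3W against BM 3D, at 3447, gave 1693 to 2520 with 1 library left out.

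Library numbers were not taken to pair samples, since the labels name nothing shared and there are only 2 pairs. The deviations of same-numbered libraries correlated at -0.022 for BM 3D and FH, 0.486 for BM 3D and BM 1D and 0.066 for BM 3W and BM 3D. The fit with the replicate block gave 6116, 896 and 3744 calls in the 3 comparisons.

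Signs turned for 4 of the genes named, on the log2 scale. Cdh2 went from -0.91 to 0.047 by total counts alone, 0.078 on log2(FPKM + 1) and on log2(FPKM + 1) unfiltered, 0.084 on log2(FPKM + 0.1). Cyp3a11 went from 0.81 to values from -0.20 to 1.41 with 1 library left out. Pklr went from -0.54 to 0.34 by total counts alone, 0.12 on log2(FPKM + 1) and on log2(FPKM + 0.1) and on log2(FPKM + 1) unfiltered, values from -1.52 to 0.036 with 1 library left out. Rdx went from -0.80 to 0.17 by total counts alone, 0.20 on log2(FPKM + 1) and on log2(FPKM + 0.1) and on log2(FPKM + 1) unfiltered. Of the 196 genes named and tested, 170 passed, and 145 of those passed under each alternative. Of the 26 that did not pass, 15 passed by total counts alone and 16 on log2(FPKM + 1). The cause of these differences was not tested. Depth of 15501005 to 21220365 counts limits the lowest genes, whose fold changes rest on few counts. With 2 libraries a group an exact permutation test of one gene cannot go below p = 0.333, so calls rest on the spread shared by all groups, and simulated 2-fold changes were seldom recovered.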

Other observations

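Of 30 lysosome and autophagy genes tested, 18 did not pass, 7 rose (23.3%) and 5 fell (16.7%), shares near the 22.5% and 17.9% of all genes (median 0.17, the median of all genes), and the 7 rises were 1 without FH 1 or FH 2, 3 without BM 3D 1 and 2 without BM 3D 2. By total counts alone 18 rose and 2 fell. The cathepsins did not move alike: Ctsh fell from 288 and 307 CPM to 70.4 and 91.5 CPM (log2 -1.88 ± 0.25, adjusted p = 2.82e-04), while Ctsl did not pass. Npc1, which moves cholesterol out of lysosomes (log2 -1.62 ± 0.25), and the autophagy genes Gabarapl1 (log2 -1.34 ± 0.20) and Atg5 (log2 -1.23 ± 0.20) fell, Gabarapl1 and Atg5 not by total counts alone.

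Of 23 cytosolic chaperone and heat shock genes, 4 rose, 3 fell and 16 did not pass (17 rose and 0 fell by total counts alone), with 0 falls without FH 1 or FH 2 and 1 without BM 3D 2. Hspb1, a small heat shock protein that binds actin, went from 2.15 and 3.09 CPM to 29.7 and 71.7 CPM (log2 4.27 ± 0.82, adjusted p = 0.00205). Hsp90aa1, the inducible cytosolic HSP90, went from 176 and 156 CPM to 885 and 579.8 CPM (log2 2.14 ± 0.29, adjusted p = 3.36e-04).

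Lymphocyte and neutrophil markers were near or at 0 in both groups. The summed level of the lymphocyte list was between 3.66 and 4.12 CPM in FH and between 0.810 and 1.72 CPM in BM 3D, and Cd4 had 1.43 and 2.22 CPM in FH and 0 counts in BM 3D. Of the 5 mesothelial markers tested, Msln and Krt19 passed as higher, and Msln stood at 0.810 and 2.46 CPM in BM 3D, with its call lost without FH 1.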
